A study of Sus scrofa with 2 samples.

Results

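On 2 array-based comparative genomic hybridization (aCGH) arrays of pig liver, 372 of 142136 eligible autosomal probes were shifted in the same direction on both arrays by at least 1 on the log2 scale, 48 of them gained and 324 lost. No 2 of the 48 gained probes and no 2 of the 324 lost probes were neighbours, so none of them formed a run at this threshold. The gained probes were dim, and the lost probes comprised 201 dim ones, whose tissue signal was not well above background, 59 bright ones, which were measured in both dyes on both arrays, and 64 of brightness between these. A probe was eligible if it lay on chromosomes 1 to 18, had a reference signal well above background on both arrays and carried no outlier flag. Such probes were 84.4% of the 168312 autosomal probes, and the array holds 177440 probes in all that are not controls. A gained probe had a centred log2 ratio of tissue over reference of at least 1 on both arrays, and a lost probe had one of at most -1 on both. The members were thus chosen by these log2 ratios, which are given as a description, without a test.

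The study aimed at a pig model of hepatic angiosarcoma, made with diethylnitrosamine (DENA), a liver carcinogen, and used aCGH to look at genetic events in the tumor. 1 array was hybridised with DNA of an angiosarcoma-like liver tumor and 1 with DNA of liver tissue labelled as a non-tumor control, both from female pigs (Sus scrofa). On each array the tissue was labelled with Cy3 and set against reference liver of a female pig labelled with Cy5. DENA was given as a single intraperitoneal injection of 200 mg/kg and the liver was resected 10 months later; tumors were micro-dissected from paraffin blocks. The study's design text gives this dose per kg of body weight, and the sample labels give it without the weight. The labels carry the DENA treatment for both samples without saying whether the animal behind the control tissue received it. The methods name a single animal with this regimen, without saying which tissues came from it. Nor is it stated whether both tissues came from 1 animal, or whether the same reference animal served on both arrays. The methods call the reference livers age-matched. The strain and the age of the animals, and the share of tumor cells in the dissected tissue, were not given in the sources used here. With 1 array per tissue there are no replicates, so no p-value is given and the number of arrays limits the precision; each array also lay on its own slide, so that slide and tissue cannot be told apart.

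In aCGH, sample and reference DNA compete for the same probe, and their signal ratio follows the relative number of copies of the probed sequence. Animals of a species differ from each other in inherited copy number variants, often at duplicated gene families, and such a variant is carried by every tissue of an animal. A reference animal that carries a variant shows it, with the sign turned, against every sample that lacks it. A copy number difference longer than the distance between probes shifts neighbouring probes together, whereas a base difference under a probe, cross-hybridization or a faint signal can shift a probe alone. The files pair the probes with positions but not with genes, and the build of these positions is not given in the sources used here. Genes and probe sequences are therefore not named here.

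The probes were 45 bases long, and neighbouring eligible probes lay a median of 10.1 kb apart. The median background-subtracted signal of all probes that are not controls was 48.6 (tissue) and 92.3 (reference) on the control array, and 68.5 (tissue) and 117 (reference) on the tumor array. Tissue signals were well above background for 76.3% of the probes on the control array and 79.8% on the tumor array. Over the eligible probes the log2 ratio had an SD of 0.396 on the control array and 0.432 on the tumor array. Across these probes, which share their spot positions and in part their brightness between the arrays, the Pearson correlation of the arrays was 0.347.

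On the control array, 0.731% of the eligible probes had a log2 ratio of at least 1 and 1.38% had one of at most -1. The tumor array had 0.751% and 1.62%. Past the threshold on both arrays were 0.0338% in the gained and 0.228% in the lost direction. The 48 gained probes were 4.62% of those gained on the control array and 4.5% of those gained on the tumor array. The 324 lost probes were a larger share of each array's own list, 16.5% for the control array and 14.1% for the tumor array. Some probes crossed from one side to the other: 29 (0.0204%) were at least 1 on the control array and at most -1 on the tumor array, and 38 (0.0267%) the reverse. Each of these 2 counts was below the 48 shared gains and the 324 shared losses, and the 2 together were above the 48.

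**Figure D1:**
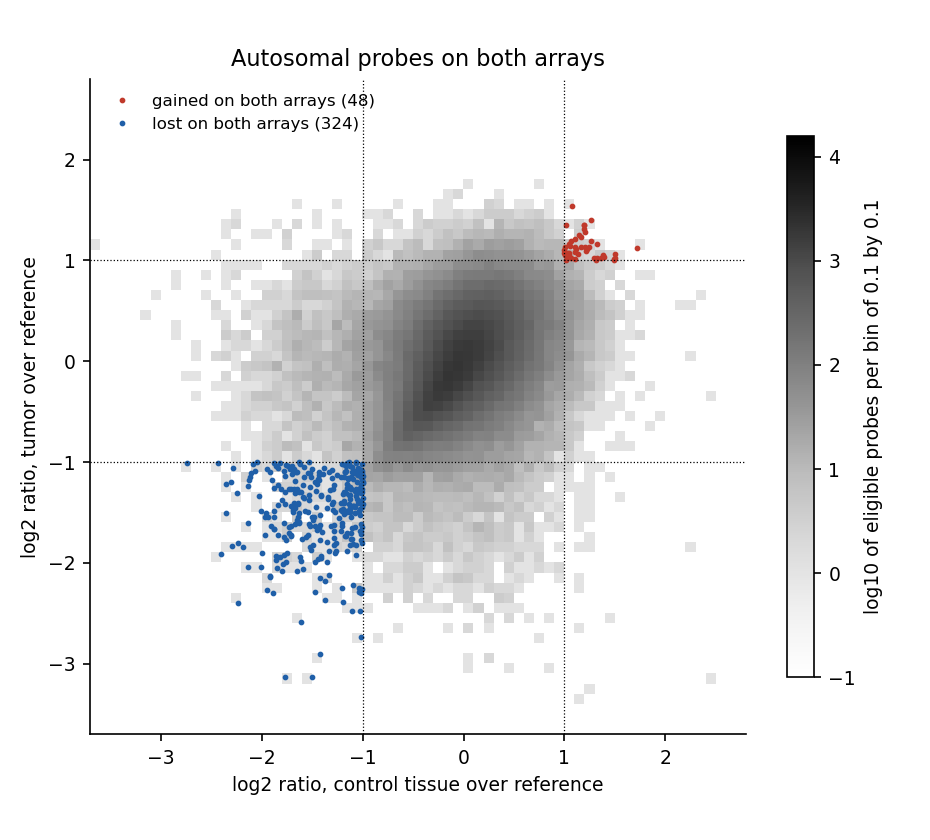
Centred log2 ratio of tissue over reference on the control array (x axis) and on the tumor array (y axis) for the 142136 eligible autosomal probes, shaded by the log10 of their number per bin, with the 48 gained and 324 lost probes marked and the thresholds at 1 and -1 drawn as lines. The gained probes crowd at the corner of their quadrant, none of them reaching 1.5 on both arrays, and 61 lost probes lie past -1.5 on both, none of which had a tissue signal well above background on both arrays.

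Gained probes lay close to the threshold. Their log2 ratio ran from 1.0 to 1.72 on the control array, with a median of 1.15, and from 1.0 to 1.54 on the tumor array, with a median of 1.09. None reached 1.5 on both arrays. The tumor minus control difference had a median of -0.01 (SD 0.22 over the 48 probes), and the tumor was lower in 25 and higher in 23. The differences thus lay on both sides of 0.

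The 5 gained probes with the largest log2 ratio on their lower array were single probes on different chromosomes. The probe at chr14:2961851-2961895 led with 1.26 on the control array and 1.40 on the tumor array. Its background-subtracted signals were 33.0 in the control tissue against 27.3 in the reference, and 37.6 in the tumor against 25.8. The 5 eligible probes on each side of it had a median log2 ratio of -0.04 and 0.02, so the shift did not extend to its surroundings. The probe at chr11:36776151-36776195 had 1.20 on the control and 1.28 on the tumor array, and that at chr6:86525426-86525470 had 1.19 and 1.31. The probes at chr5:96590351-96590395 and chr15:69194626-69194670 both had 1.19 on the control and 1.35 on the tumor array. All 5 were in the dimmest decile of the eligible probes by reference signal, and the median of the flanking probes stayed between -0.13 and 0.32 on either array.

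The threshold cut through a continuous distribution. The 3 gained probes nearest to it on the inside, at chr7:6226176-6226220, chr7:90232826-90232870 and chr13:41511226-41511270, had a log2 ratio on their lower array of 1.002, 1.001 and 1.001. The 3 nearest probes outside had 0.999, 0.999 and 0.998. For losses, the 3 just inside lay 1.001 below the array median on their less shifted array and the 3 just outside 0.999 below it.

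The gained probes were dim in the reference channel, which is the denominator of the ratio that chose them, so their place in the order of brightness is in part fixed by the rule. When the eligible probes were ranked by their reference signal on both arrays and split into 10 equal classes (deciles), 42 of the 48 (87.5%) were in the dimmest decile, 5 in the next and 1 in the one after, and none was in the 7 brighter deciles. Their median reference signal was 27.2 on the control array and 32.1 on the tumor array, against 117 and 150 for all eligible probes. The tissue signal of all 48 was well above background on both arrays, with medians of 31.7 and 38.4, which a high ratio over a measured reference requires. In the dimmest decile the log2 ratio of all probes had an SD of 0.67 on the control and 0.66 on the tumor array around a median of 0.14, and the gain threshold lay only 1.28 and 1.31 SD above that median. Of that decile, 4.47% were gained on the control array and 3.97% on the tumor array. In it 44 probes, counted over both orders, were past the threshold in opposite directions on the 2 arrays, against 42 gained on both and 201 lost on both. In the brightest decile, where the SD was 0.24 and 0.28, the gain threshold lay 5.52 and 5.03 SD above the median and 0 probes passed it on either array. With the trend of the log2 ratio on reference brightness removed from each array, 15 of the 48 were still gained on both, and 16 probes in all. The median shift of the 48 was then 1.04 (SD 0.17) on the control and 0.96 (SD 0.12) on the tumor array. None of the 48 was below 0.84 on either array. They were chosen at 1 or more, and the median log2 ratio in their deciles was only 0.14 to 0.17. What remains is thus largely fixed by the rule and supports nothing further.

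**Figure D2:**
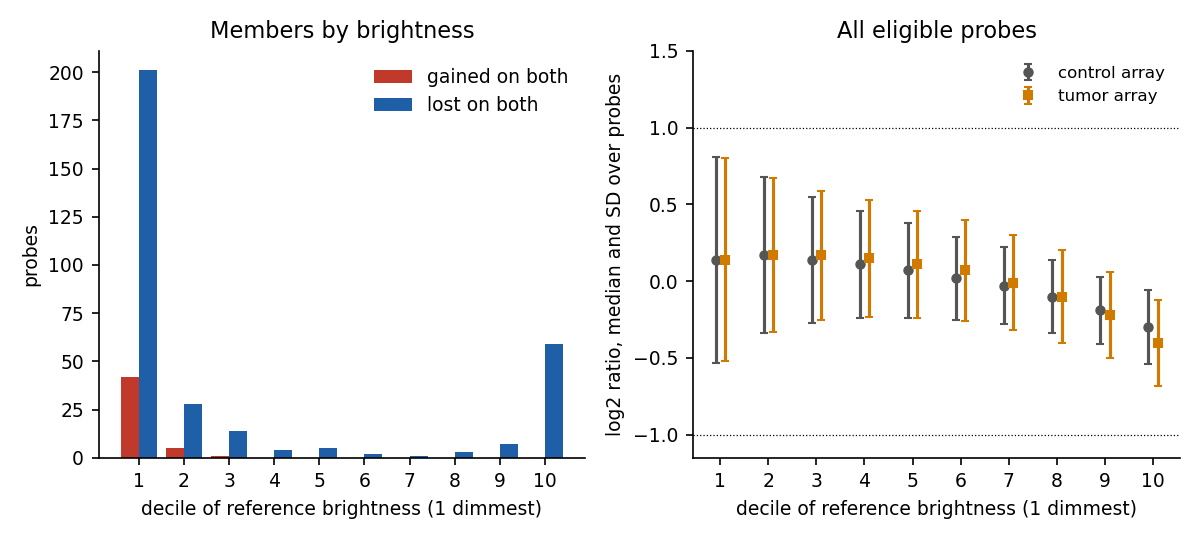
Left, number of gained and lost probes in each decile of the eligible probes by reference signal, from the dimmest (1) to the brightest (10); right, median log2 ratio of all eligible probes of each decile, with bars of 1 SD over probes, on the control and the tumor array. Gained probes gather in decile 1 (42 of 48), lost probes at both ends (201 in decile 1 and 59 in decile 10), and the median runs from 0.14 in the dimmest decile to -0.30 and -0.40 in the brightest.

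The log2 ratio of the lost probes ran from -2.74 to -1.0 on the control array, with a median of -1.38, and from -3.13 to -1.0 on the tumor array, with a median of -1.42. Of the 324, 61 were past -1.5 on both arrays and 3 past -2, but none of these 61 had a tissue signal well above background on both arrays, so how far they lay below the array median was not measured. Over all 324, the tumor was lower than the control in 189 and higher in 135, with a median difference of -0.08 (SD 0.52). For 244 of the 324 the tissue signal was well above background on neither array, so most of these differences were not measured. By brightness the 324 fell into 201 in the dimmest decile (62.0%), 59 in the brightest decile (18.2%) and 64 between them. The tumor was lower in 98 and higher in 103 of the 201. These counts were 49 and 10 for the 59, and 42 and 22 for the 64. The split into these classes was made after the values were seen.

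The 201 dim losses were signals near zero in the tissue channel. Their median tissue signal was 4.16 on the control array and 5.72 on the tumor array, against reference signals of 26.6 and 30.2. None of the 201 had a tissue signal well above background on either array. Over all 324 lost probes, the tissue signal was well above background on both arrays for 75 (23.1%) and on neither for 244. For comparison, the 810 negative control spots of each array had a tissue signal of 0.5 (SD 4.18) on the control array and 0.363 (SD 4.37) on the tumor array. At or under the 95th percentile of these spots, 7.4 and 7.49, lay 199 lost probes on the control array, 165 on the tumor array and 145 on both. Of all eligible probes 217 (0.153%) lay that low on both arrays. The rule chose for a low tissue signal over the reference, so these counts describe the members and support nothing further. At 98 lost probes on the control array and 79 on the tumor array the extraction software had replaced the tissue signal by a surrogate, so the log2 ratio there is the software's floor rather than a measurement.

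The 5 losses with the largest printed shift on both arrays were all of this dim kind, so their order was not measured. The probe at chr4:56879176-56879220 had -2.24 on the control and -2.40 on the tumor array, with tissue signals of -0.348 and 2.64 against reference signals of 36.6 and 42.6. The probe at chr14:125313451-125313495 had -2.14 and -2.04, and that at chr17:33941951-33941995 had -2.01 and -2.04. The remaining pair, at chr3:104208651-104208695 and chr16:32816226-32816270, had -1.95 and -1.92 on the control and -2.27 and -2.14 on the tumor array. All 5 tissue signals were surrogates on both arrays, and the signals were not well above background. When each was set to the lowest tissue signal that was well above background on its array, the log2 ratios lay between -0.27 and 0.29, so no fold is given for them. The same bound left 79 of the 324 lost probes at or below -1 on both arrays, among them 2 of the 244 whose tissue signal was well above background on neither.

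**Figure D3:**
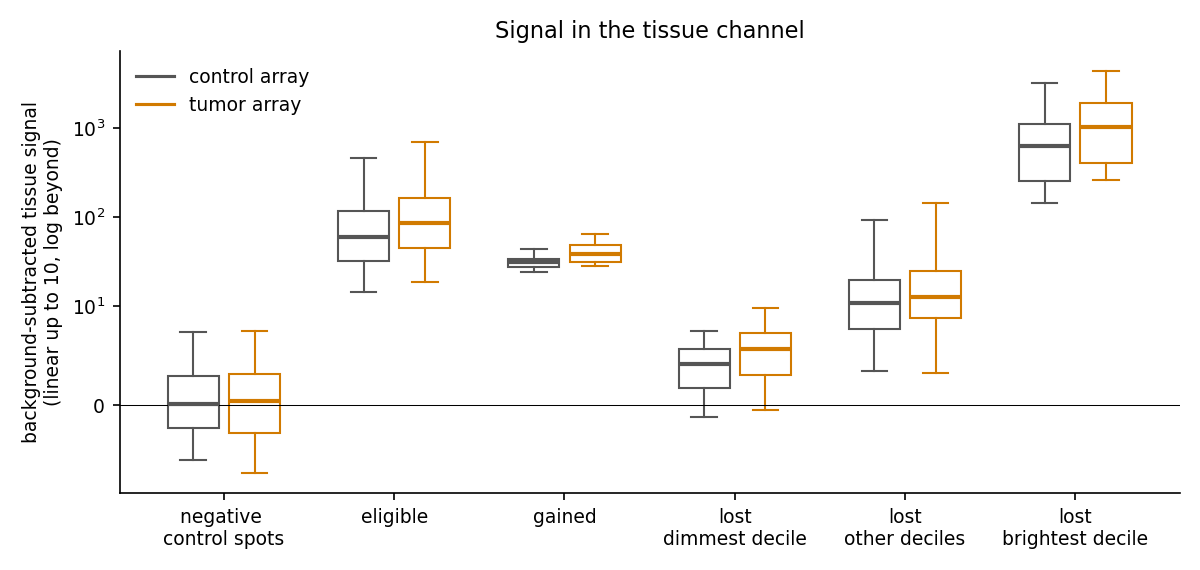
Background-subtracted tissue signal of the negative control spots, all eligible probes, the gained probes and the lost probes of the dimmest, other and brightest deciles, on the control and the tumor array; boxes span the quartiles, the line is the median and the whiskers reach the 5th and 95th percentiles. The dim losses, with medians of 4.16 and 5.72, overlap the range of the negative control spots, whose 95th percentiles are 7.4 and 7.49, and the bright losses, with medians of 622 and 1020, lie far above it.

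The 59 bright losses were measured well above background in both dyes on both arrays, with no surrogate and no saturated reference spot. With the brightness trend removed, which raises bright probes and lowers dim ones, 1 of the 59 was still at or below -1 on both arrays. Their median was then -0.75 (SD 0.23) on the control and -0.87 (SD 0.27) on the tumor array, and nearly all fell short of the threshold. The 59 were chosen at -1 or lower, and the median of their decile was only -0.30 and -0.40. What remains is thus largely fixed by the rule and supports nothing further. All 201 dim losses, which the removal moves further down, stayed past the threshold. Without that removal, the log2 ratio of the 59 bright losses ran from -1.90 to -1.0 on the control array, with a median of -1.12 (SD 0.20), and from -2.29 to -1.0 on the tumor array, with a median of -1.37 (SD 0.29). The median tissue signal was 622 in the control tissue and 1020 in the tumor, against reference signals of 2670 and 4850. The tumor was lower than the control at 49 of the 59, by a median difference of -0.26. All probes of the brightest decile leaned the same way: the median was -0.30 on the control and -0.40 on the tumor array, and the tumor was lower at 10495 of 14214, by a median of -0.10. Bright losses were shared more fully than dim ones from the side of the control array. In the brightest decile 0.584% of the probes were lost on the control array and 2.55% on the tumor array, and the shared ones were 71.1% of the former 83 and 16.3% of the latter 362. In the dimmest decile 7.92% and 7.51% were lost, and the shared ones were 17.9% of the control's 1126 and 18.8% of the tumor's 1067. The Pearson correlation of the arrays over the probes of a decile was 0.22 in the dimmest and 0.74 in the brightest, probes that again share their spots and their brightness.

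The strongest bright losses are named here after their values were seen. The probe at chr10:54028326-54028370 had a log2 ratio of -1.47 on the control array and -2.29 on the tumor array, 2.77-fold and 4.89-fold lower than the array median. Its tissue signals were 1010 and 1160 against reference signals of 5720 and 10300. The eligible probe before it, which starts at position 54018151, was also low, at -0.68 on the control and -1.07 on the tumor array, so that the tumor array held a lost pair there. The probes on either side of this pair were at 0.61 and 0.94 on the control array and 0.25 and 0.44 on the tumor array, so the pair, 10.2 kb long, lay between probes above the array median. On chromosome 15, the probe at chr15:81544301-81544345 had -1.40 and -1.69, and that at chr15:20538701-20538745 had -1.35 and -1.99. The probe at chr1:244329501-244329545 had -1.41 on the control and -1.33 on the tumor array, and that at chr8:16028401-16028445 had -1.63 and -1.30. The brightest lost probe of all, at chr1:241896751-241896795, had -1.16 and -1.49 with reference signals of 26900 and 45200.

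The 64 lost probes of the 8 deciles between had medians of -1.24 on the control and -1.31 on the tumor array, and 28 of them were in decile 2 and 14 in decile 3. In 16 of the 64 the tissue signal was well above background on both arrays. The lowest values on either array came from this class, at tissue signals that were not well above background and were surrogates, so they have no order: the probe at chr14:42342801-42342845 had -1.77 on the control and -3.13 on the tumor array, and that at chr1:45925326-45925370 had -1.50 and -3.13. The lowest control value was -2.74, at chr16:62248801-62248845, where the tumor array had -1.01. The tissue signals behind these extremes were 3.08 and 2.39 in the tumor and 1.1 in the control tissue, under the 95th percentiles of the negative control spots.

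A difference in copy number over several probes, large enough to pass the threshold at each, would appear as a run of neighbouring probes. A gain of a single copy on 1 chromosome would not reach the threshold. A loss of a single copy on 1 chromosome would lie just at the threshold, so scatter could keep its probes from passing on both arrays. No run of 2 or more was found among the 48 gained or the 324 lost probes, also with 1 other probe allowed between members. No candidate run is therefore given at the threshold of 1, and gains or losses of a single copy could have been missed. With other background corrections the lost list itself changed: normexp gave 1152 lost probes with 45 in 22 runs, and signals without background subtraction gave 882 with 30 in 15 runs, and only 66 and 64 of these probes were among the 324. The closest lost probes lay 33256 bp apart on chromosome 14. The first, at chr14:55848726-55848770, was a bright probe with -1.21 on the control and -1.60 on the tumor array, and the second, at chr14:55882026-55882070, was a dim one with -1.32 and -1.28. The 2 probes between them were not low on the control array, with a median of 0.26 there and -0.30 on the tumor array. The closest gained probes, at chr1:183927926-183927970 (1.02 and 1.35) and chr1:184162876-184162920 (1.01 and 1.05), were 234906 bp apart with 13 probes between them, whose median was 0.34 on the control and 0.41 on the tumor array. The next closest lost probes were 71181 bp apart on chromosome 3 and 140556 bp apart on chromosome 1. The distance to the next member of the same direction had a median of 20.0 Mb for gains and 4.03 Mb for losses, and it was within 1 Mb for 1 of 33 gained and 34 of 306 lost pairs. At chr4:46339726-46339770 a lost probe (-1.77 and -1.42) was followed directly by a gained one at chr4:46351751-46351795 (1.49 and 1.01), and both were in the dimmest decile.

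The probes around the members lay far nearer the array median than the members did, with a lean in the members' direction around gains and bright losses. The 5 eligible probes on each side of a gained probe had a median log2 ratio of 0.05 on the control array and 0.14 on the tumor array, and at none of the 48 was this flank median past 0.5 on both. Around lost probes the medians were -0.03 and -0.01, around the dim losses -0.02 and 0.05, around the bright losses -0.07 and -0.15, and at no lost probe was the flank median past -0.5 on both. Of the 96 probes directly next to a gained probe, 49.0% were above 0 on both arrays, against 30.2% of all eligible probes, and 3.12% were past 0.5 on both, against 2.19%. Their median was 0.05 on the control array and 0.19 on the tumor array. With the local level (250 kb a side) removed, 21 of the 48 gained and 254 of the 324 lost probes stayed past the threshold on both. Of the 648 next to a lost probe, 35.3% were below 0 on both, against 35.0%, and 2.78% past -0.5 on both, against 3.3%. The share below 0 on both was 32.6% next to the dim losses and 42.4% of the 118 probes next to the bright losses, and the share past -0.5 on both was 2.24% and 3.39%.

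**Figure D4:**
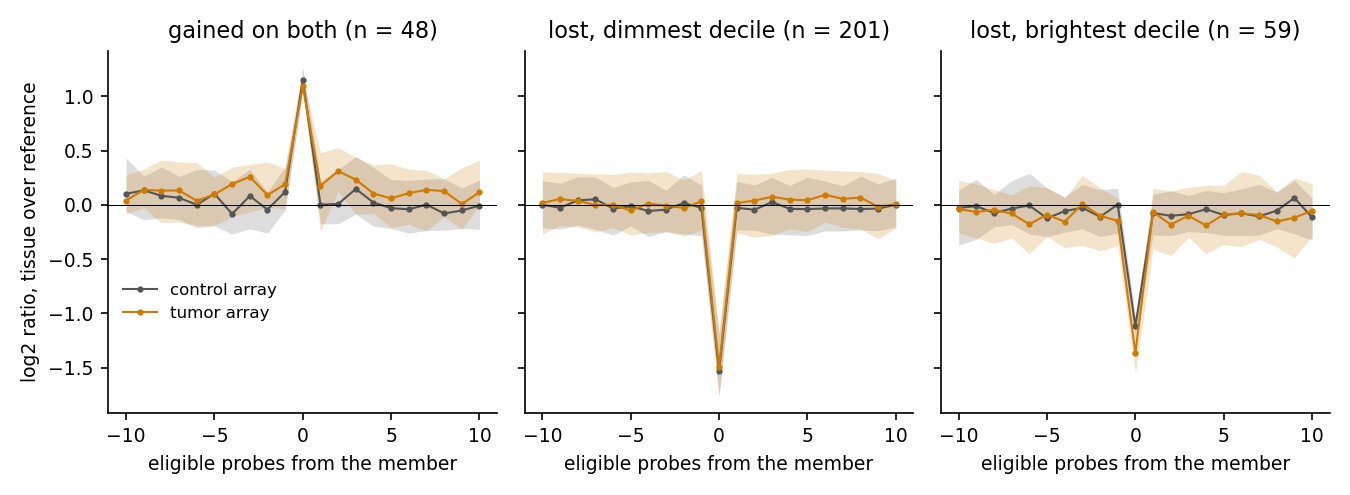
Log2 ratio at the member (offset 0) and at the 10 eligible probes on each side of it, for the 48 gained probes, the 201 dim losses and the 59 bright losses, as the median over members on each array with the band between the quartiles. The shift is seen at the member itself, and over 5 probes a side the flanking medians on the control and tumor arrays are 0.05 and 0.14 for gains, -0.02 and 0.05 for dim losses and -0.07 and -0.15 for bright losses.

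At lower thresholds a few members were neighbours. At 0.8 on both arrays 324 probes (0.228%) were gained and 791 (0.557%) lost, with 1 gained pair and 3 lost pairs. The gained pair, chr1:184162876-184193445, had 1.01 and 0.94 on the control array and 1.05 and 1.14 on the tumor array, with 0.39 and 0.06 just outside it on the control and 0.45 and 0.10 on the tumor array. The first of its probes is the second of the closest gained probes above, and both its probes were dim. Of the lost pairs, the one at chr4:97705901-97719820 was bright in both probes, with reference signal medians of 7660 and 14800. It had -0.84 and -1.02 on the control and -1.08 and -1.77 on the tumor array, and the probes just outside it were between -0.46 and 0.08. The pair at chr14:30039376-30048670 had -0.91 and -1.17 on the control and -0.81 and -1.09 on the tumor array, with -0.30 to -0.45 just outside it. The pair at chr7:56042976-56052270 had -1.12 and -1.65 on the control and -1.27 and -0.84 on the tumor array, and the tissue signal of its second probe was well above background on neither array.

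At 0.5 on both arrays, a threshold added after the data were seen, 3108 probes (2.19%) were gained and 4687 (3.3%) lost. The gained ones formed 100 runs of 205 probes, 140 of which were in the 2 dimmest deciles and 0 in the 2 brightest. The dimmest decile alone held 76 of the 205 and 1194 of all 3108. The lost ones formed 221 runs of 458 probes, 319 of which were in the 2 brightest deciles. The brightest decile alone held 255 of the 458 and 2221 of all 4687. The brightness of the runs thus in large part follows that of the whole lists. Runs of 3 or more were few, 5 gained and 14 lost, and no run held more than 4 probes. The 4-probe losses were at chr16:76444776-76455920, with a mean of -0.59 on the control and -0.81 on the tumor array, and at chr3:36491251-36531995, with -0.63 and -0.72. The gained 3-probe run with the largest tumor mean, chr1:77611201-77632520, had 0.67 on the control and 1.11 on the tumor array. On single arrays runs at the threshold of 1 were also short. The control array had 5 gained and 33 lost runs, with 0.731% and 1.38% of the eligible probes past the threshold. The tumor array had 19 and 47 runs, with 0.751% and 1.62% of the probes past it. The longest of them, 4 lost probes on the tumor array at chr12:2603876-2652020, averaged -1.09 there and -0.35 on the control array. At 0.5 single arrays held far more and longer runs. The control array had 1004 gained and 930 lost runs of up to 5 probes, with 8.29% and 8.37% of the eligible probes past 0.5. The tumor array had 2022 gained runs of up to 7 probes and 2434 lost runs of up to 9. There 10.3% of the probes were past 0.5 in the gained and 11.9% in the lost direction. A larger share past the threshold makes neighbours more frequent by itself, so the counts of the 2 arrays are not on a like footing.

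Shared losses were spread over the genome and shared gains were too few to rank chromosomes by. Lost probes were found on all 18 autosomes, at 2.28 per 1000 eligible probes overall. The highest rates were 3.23 on chromosome 16 (17 lost probes) and 3.13 on chromosome 9 (29 lost probes). The lowest was 1.44 on chromosomes 11 (7 lost probes) and 17 (6 lost probes), so these rates rest on few probes. Gained probes numbered 9 on chromosome 1 and 5 on chromosome 15, were between 1 and 4 on the others that had any, and were not found on chromosomes 10, 12 and 18. Within 5 Mb of a chromosome's first or last probe lay 8.33% of the gained and 8.02% of the lost probes, against 9.08% of the eligible ones. For the bright losses the share was 5.08% (3 of 59), against 15.8% of the eligible probes of the brightest decile.

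Place on the slide moved with the losses. The spots form 1064 rows, and in 10 bands of rows the lost probes per 1000 eligible probes fell from 5.06 in the first band and 3.58 in the second to 0.946 in the sixth, and were 3.10 in the last. The first 2 bands held 118 lost probes (36.4%) against 19.3% of the eligible ones, and 2 gained probes (4.17%). The median log2 ratio of all eligible probes in the first band was -0.13 on the control and -0.09 on the tumor array, against 0.01 and 0.00 in the fifth. With the median of each of 10 by 5 blocks of spots removed from both arrays, an alternative chosen after seeing the data, 267 of the 324 lost and 43 of the 48 gained probes were still past the threshold on both. Each probe sits at the same place on both arrays, so for a single probe its sequence and its place cannot be told apart.

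**Figure D5:**
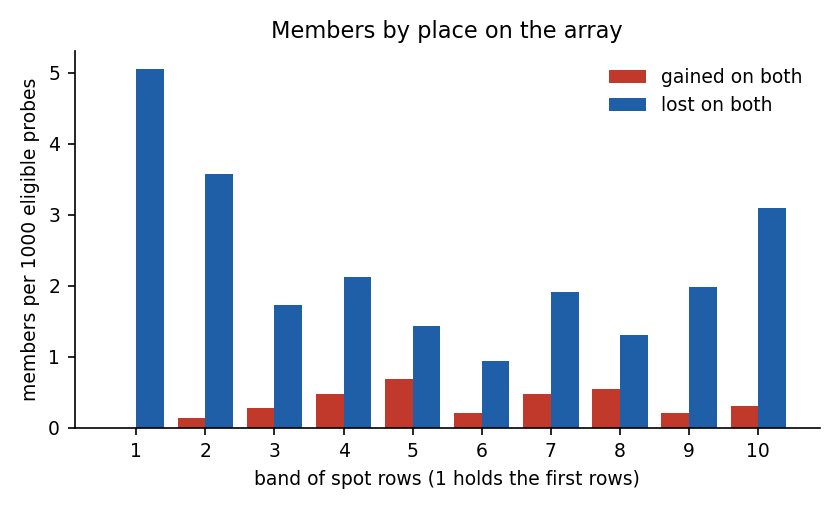
Lost and gained probes per 1000 eligible probes in 10 bands of rows across the array, from the first rows (1) to the last (10). The lost rate is 5.06 in band 1 and 3.10 in band 10 against 0.946 in band 6, and the gained rate is 0 in band 1.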

How the data were processed

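Genomic DNA of 1 angiosarcoma-like tumor and 1 control liver tissue (Cy3) was hybridized against reference liver (Cy5), 1 array each. Spots were extracted by the authors with Agilent Feature Extraction 11.0.1.1. The deposited intensity columns hold median and background signals, background-subtracted signals, and processed signals scaled by a dye factor and a smooth spatial factor. A log10 ratio of Cy5 over Cy3 was deposited as well, and the series table repeats it. Whether a spot was well above background or an outlier was taken from the deposited 0 or 1 flags, a score without a unit.

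Log2 ratios of tissue over reference were computed from the processed signals, without loess or quantile normalization, and centred on the autosomal median of each array. The signals given are background-subtracted. A run was 2 or more members that were neighbours among eligible probes; the search for runs was checked on simulated data. Probes were named by rules on the size of the shift and on closeness to the threshold. The members, lists and rules were chosen with earlier results of these data known. No p-value was computed. Intervals of shares are exact Clopper-Pearson and cover counting error only.

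Alternatives were the deposited log ratio, the series table, normexp (offset 50, on median signals, since mean signals are not in the spot columns), no background subtraction, thresholds of 0.8 and 1.5, centring on the mode, other filters, the opposite direction, removal of a brightness trend (lowess, fraction 0.3) or of the local level (250 kb a side), and other definitions of a run. Added after seeing the data were a threshold of 0.5, dim tissue signals at their bound and removal of the place on the array. Software was R 4.3.3, limma 3.58.1, Python 3.11.15, statsmodels 0.14.6, scipy 1.17.1, pandas 2.3.3, numpy 2.4.6 and matplotlib 3.10.9.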

Additional observations from a re-analysis of the deposited data

Results flagged for a closer look

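Outside the autosomes, 7556 of 9121 X chromosome probes were eligible by the same criteria, and 4 of them (0.0529%) were gained and 20 (0.265%) lost on both arrays, with no neighbours among them. The autosomal shares were 0.0338% and 0.228%. These X chromosome probes stood out because they are not among the members described above.

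Of the 7 mitochondrial probes, all eligible, 1 was lost on both arrays and none gained. Their median log2 ratio was -1.70 on the control array, where 7 were at or below -1, and -0.64 on the tumor array, where 1 was. Whether the arrays differ there was not tested, since there is 1 array per tissue. These probes stood out because they lie outside the autosomal measurement.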

How the results depend on the processing

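The number of probes gained on both arrays moved from 48 to 0 with normexp, without background subtraction and at a threshold of 1.5, to 324 at 0.8, 3108 at 0.5, 680 without the filter on the reference channel, and 16 with the brightness trend removed. The number lost moved from 324 to 1152 with normexp, 882 without background subtraction, 791 at 0.8, 61 at 1.5, 4687 at 0.5, 616 without the reference filter, 75 where both channels had to be well above background, and 79 with dim tissue signals at their bound. With red over green the counts trade places, at 324 gained and 48 lost, by construction. Of the 1152 and 882 losses, 66 and 64 were among the 324. The cause of these moves was not tested, except that thresholds and filters change the counts by their construction.

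Members in runs, 0 in both directions, became 2 gained and 6 lost at 0.8, 205 and 458 at 0.5, and 2 and 2 without the reference filter. For losses they became 45 with normexp and 30 without background subtraction. The share of lost probes with tissue well above background on both arrays, 23.1% (95% interval 18.7 to 28.1), moved to 41.2% at 0.8, 0.0% at 1.5 and 3.1% with the brightness trend removed. The counts of gains and losses were within 1.5 times of their value with the deposited log ratio and the series table (65 and 301 each), centring on the mode (69 and 269), kept outlier flags, the local level removed (45 and 329) and the place on the array removed (64 and 272). Of the members, 21 of the 48 gained and 254 of the 324 lost stayed past the threshold with the local level removed, and 15 and 258 with the brightness trend removed. The 258 comprised all 201 dim losses, 1 of the 59 bright losses and the rest from the deciles between. With that trend removed 387 probes were lost in all, 276 of them in the dimmest decile and 1 in the brightest. The alternatives on GC content and probe sequence were not run, since the probe sequences are not analysed here. No paired analysis was possible because each tissue has 1 array.

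Limits: the dim members lie where the SD of the log2 ratio is largest, and the tissue signal of 244 lost probes was well above background on neither array. With 1 array per tissue, and with the animals behind tissue and reference not stated, a property of the reference, of both tissues or of the probe cannot be told apart.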

Other observations

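Across all alternatives other than the thresholds and the opposite direction, 2 lost probes and 0 gained probes stayed members. Both lost probes were well above background in the tissue, which the filter on both channels required. That no gained probe stayed follows from normexp and from no background subtraction, each of which left 0 gained probes. The probe at chr10:54028326-54028370 is described above, and with the brightness trend removed it had -1.04 on the control and -1.71 on the tumor array. The probe at chr16:69539651-69539695, in the decile next to the brightest, had -1.54 and -1.50, with tissue signals of 76.0 and 123 against reference signals of 431 and 621, and with the trend removed -1.33 and -1.27.

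In some places neighbouring probes were shifted on 1 array and not alike on the other. At chr11:65328126-65337420, 2 neighbouring probes had 2.44 and 1.28 on the control array and -3.11 and -3.29 on the tumor array, where the tissue signals of 2.06 and -1.42 were not well above background and the ratios are those of surrogates, and the probes just outside were between -0.77 and 0.26. At chr2:54596276-54617595, 3 neighbouring probes had 1.45, 1.02 and 1.26 on the control array and 0.27, -0.57 and 0.29 on the tumor array. At chr3:123366326-123385795, 3 neighbouring probes had -2.10, -1.91 and -1.31 on the tumor array and 0.60, -2.41 and 0.21 on the control array, and of these only the last had a tissue signal well above background on both arrays.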
